A study of Mus musculus with 2 samples.

Results

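The 114 odorant receptor (OR) genes from Olfr544 to Olfr692 were followed through a single-cell RNA-seq data set of mouse olfactory epithelium. They were the features with a symbol between Olfr544 and Olfr692 and without a pseudogene suffix, out of 32534 features of which 1104 were ORs without that suffix. The 2 libraries came from dissected olfactory epithelium of females, 1 from an OR1A1 transgenic mouse of 9 weeks and 1 from a wild-type mouse of 8 weeks. The transgenic animal was hemizygous for Tg(Or8a1-OR1A1,-MAPT/mCherry)D736Feins, a construct whose name cites the mouse receptor gene Or8a1, the human receptor OR1A1, MAPT and the fluorescent protein mCherry, and the wild-type animal came from a cross of 10G4-V2.2-#7/Jax with Bl6/129SF1/J. Strain background, age, animal and library therefore differed together with the transgene, and their parts in any difference between the libraries cannot be told apart. With 1 library per group no difference was tested: values of the libraries stand side by side, shares carry exact binomial (Clopper-Pearson) and means per cell exact Poisson 95% intervals, and these intervals cover counting error only. Beside a count of 0 the upper limit given is the share that 3 counts would make.

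ORs are G protein-coupled receptors of olfactory sensory neurons (OSNs), and each neuron expresses a single OR gene from a single allele. Mammalian class I ORs resemble the receptors of fish, lie in one large cluster that in the mouse is on chromosome 7 around the β-globin genes, and are mostly expressed in neurons of the dorsal zone of the epithelium. The other ORs, mostly class II, are spread over many clusters and over dorsal and ventral zones. The RefSeq table of the earlier build GRCm38.p6 placed all 114 genes on chromosome 7. Receptor family numbers among the gene synonyms gave class I (families up to 42) for 110 of them, class II for 2 (Olfr652 and Olfr681), numbers of both classes for Olfr605 and no number for Olfr596. Another 12 ORs outside the range also carried class I family numbers and count here among the other ORs. The deposited files call the genes by their Olfr symbols and Ensembl identifiers.

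Single cells were profiled with the 10x Genomics 3′ assay, which tags each captured transcript with a unique molecular identifier (UMI). The transgenic library held 70572741 UMIs and the wild-type library 55701219, and filtering left 1745 transgenic and 1117 wild-type cells, with medians of 14440 and 12983 UMIs. A total of 1 cell barcode was shared by both libraries. Clusters built without OR genes gave 616 transgenic and 430 wild-type mature OSN-like cells (marked by Omp, Gnal and Cnga2 among others). In lineage order before them stood globose basal cells (GBC, 53 and 7), immediate neuronal precursors (INP, 69 and 16), an early immature group led by Tex15 (59 and 9) and later immature OSN-like cells (163 and 46). A cluster with Calb2 among its leading genes lay between immature and mature cells (144 and 37) and is called transition here. Its marker score did not reach that needed for a name. Named non-neuronal classes held 590 and 524 cells.

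An OR is said to lead a cell when it had the most UMIs of all ORs there, with at least 3. Class I members led 35 of 437 OR-led mature cells in the transgenic library, 8.01% (5.64 to 11.0%), and 47 of 400 in the wild-type library, 11.8% (8.76 to 15.3%). In all mature cells, led or not, the shares were 5.68% of the 616 transgenic and 10.9% of the 430 wild-type cells. Class I share and class I-led refer here to the 114 members and leave out the 12 class I ORs outside the range. Of those, Olfr68 led 1 transgenic and 4 wild-type mature cells and Olfr69 led 0 and 3. Olfr543 led 1 and 1, Olfr67 0 and 1 and Olfr33 1 and 0, and the rest led none. These cells count as led by other ORs. The transgenic library had more mature cells that no endogenous OR led (179, against 30 in the wild type), but the class I share was lower in the transgenic library also among the led cells. The intervals of the shares of led cells overlapped. The order turned round in 1 of 19 settings, which took in the main one, all neurons and all kept cells. That was with no doublets removed, where fewer clusters carried the mature name. The share was then 8.84% in transgenic cells and 8.30% in wild-type cells. The shares were 6.03%, 8.01% and 14.7% in the 3 mature clusters of the transgenic library and 10.6%, 13.4% and 8.77% in the same clusters of the wild type, so that the cluster with the highest share in the transgenic library had the lowest in the wild type. These clusters held 7, 23 and 5 class I-led transgenic cells and 15, 27 and 5 wild-type cells.

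A total of 47 of the 114 genes led at least 1 mature cell in either library. In the transgenic library 30 genes did so, 26.3% of the members, against a background of 25.7% for all 1104 ORs, and in the wild-type library 32 genes, 28.1%, against 24.1%. The members' share of leaders was thus close to that of all ORs in both libraries. The same 15 genes led in both, which was 50% of the 30 transgenic leaders and 46.9% of the 32 wild-type leaders. For other ORs the overlap was 78 genes, 30.7% of 254 transgenic and 33.3% of 234 wild-type leaders. No mature cell had a tie for the lead.

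Olfr591 and Olfr672 led the most mature cells of all members over both libraries. Olfr591 (ENSMUSG00000057461, receptor family 24) led 3 transgenic cells with 93, 77 and 74 UMIs and 4 wild-type cells with 200, 173, 159 and 123 UMIs. Every transgenic value lay below every wild-type value, and the cells were of like depth (10874 to 12619 UMIs in all in transgenic cells and 10152 to 14061 in wild-type cells). Olfr672 (ENSMUSG00000051172, family 32) led 2 transgenic cells with 348 and 286 UMIs and 4 wild-type cells with 185, 184, 119 and 72 UMIs. Here the transgenic values were the higher ones, again without overlap, in cells of 15382 and 15911 UMIs against 8058 to 11465 UMIs. Neither difference was tested, and cells of a library are not replicates. Absence of overlap was not particular to these genes. It held for all 15 genes that led in both libraries, mostly with 1 cell in each. The transgenic median was the lower for 11 of them and the higher for 4.

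Olfr661 (ENSMUSG00000073920, family 40) was the other member to lead 4 cells of a library. It led no transgenic cell and 4 wild-type cells with 156, 95, 88 and 73 UMIs. No barcode of the transgenic library, cells and free RNA included, held a UMI of Olfr661, against 482 UMIs in the wild-type library. Other genes were about as uneven over all barcodes. Olfr677 had 0 transgenic and 402 wild-type UMIs, Olfr657 0 and 178, Olfr629 2 and 575, and Olfr605 116 and 1. Olfr592, with 13 and 706, and Olfr544, with 16 and 408, were uneven to a lesser degree. Olfr652, with 292 and 6, and Olfr641, with 167 and 7, were so in the other direction, with more transgenic UMIs. These genes were set beside Olfr661 as examples, after their values had been seen.

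The other leaders named by rank were mostly seen in 1 or 2 cells a library. Olfr683 led 2 transgenic cells with 90 and 79 UMIs and 1 wild-type cell with 76, and Olfr594 led 1 transgenic cell with 59 UMIs and 2 wild-type cells with 84 and 70. Olfr665 led 1 cell in each library with 236 transgenic and 333 wild-type UMIs, and Olfr586 likewise with 226 and 259. Olfr629 led no transgenic cell and 2 wild-type cells with 189 and 165 UMIs, and Olfr677 none and 2 with 190 and 157. Olfr677 and Olfr629 were thus also nearly or wholly without transgenic UMIs over all barcodes, as given above, whereas Olfr544 and Olfr592 led no transgenic cell but had UMIs in that library.

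**Figure D1:**
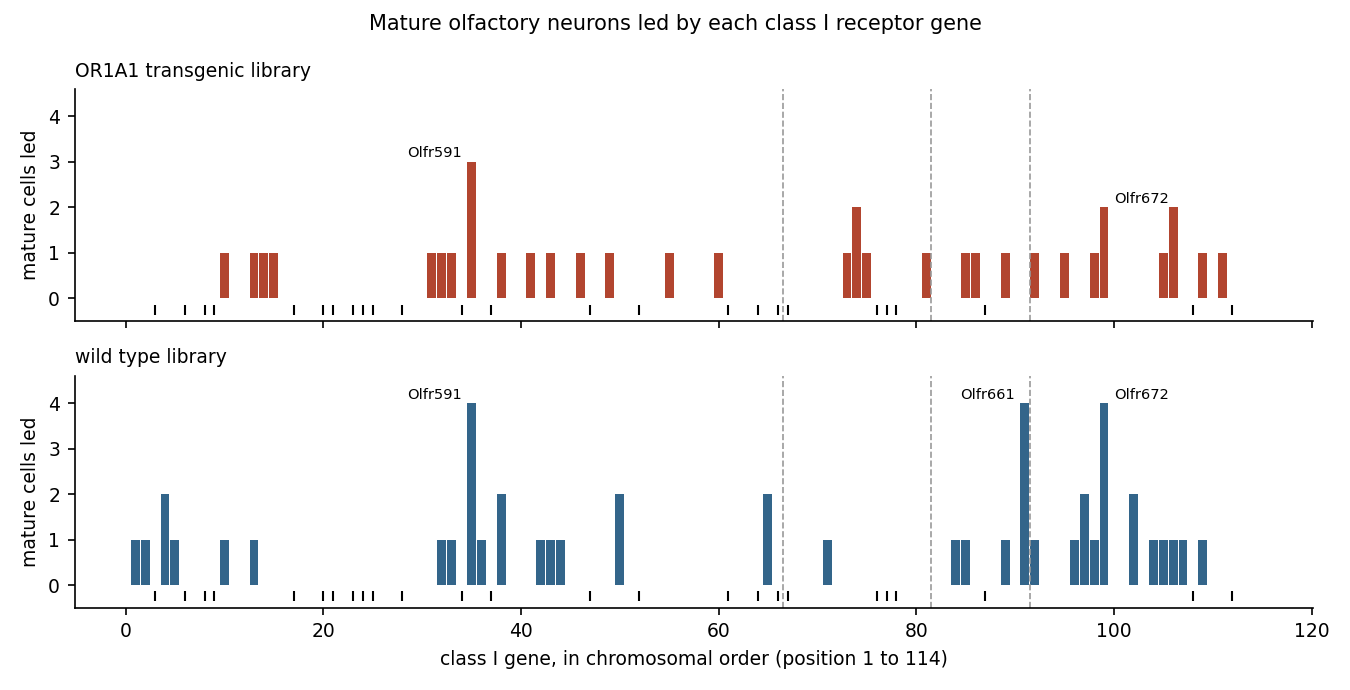
Mature OSN-like cells led by each of the 114 class I genes, in chromosomal order on the x axis, with the number of led cells on the y axis for the OR1A1 transgenic (upper) and the wild-type library (lower). Ticks below the bars mark the 25 genes without a UMI in any kept cell and dashed lines part the 4 blocks of the cluster. Olfr591 reached 3 transgenic and 4 wild-type cells, and no bar is higher than 4.

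The number of cells per gene was low throughout. In the transgenic library 84 of the 114 genes led no mature cell, 26 led 1, 3 led 2 and 1 led 3. In the wild-type library 82 led none, 23 led 1, 6 led 2 and 3 led 4. The variance of led cells over the members was 1.05 times its mean in the transgenic and 1.62 times in the wild-type library, against 1.83 and 1.76 times for the other ORs. The ratio is close to 1 where led cells fall on genes at equal odds, and members were nearer to it than the other ORs in the transgenic library. The 5 members with the most cells held 28.6% of the 35 class I-led transgenic cells and 34.0% of the 47 wild-type ones. The most common other OR led 7 cells in each library.

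Once a class I gene led a cell, its transcript number was in the range of the other receptors. The leading member had 3 UMIs in the lowest, 85 in the median and 348 in the highest transgenic cell, and 4, 95 and 609 in the wild-type cells. Other leading ORs had medians of 93.5 transgenic and 116 wild-type UMIs per cell, with upper ends of 726 and 860. Quartiles of the members were 58.5 and 178 UMIs in transgenic cells and 68 and 162 in wild-type cells. Those of the other ORs were 48.25 and 149 in transgenic cells and 65 and 169 in wild-type cells. Class I-led cells had medians of 14089 transgenic and 10826 wild-type UMIs in all, and cells led by other ORs 14275.5 and 12604, so that wild-type class I-led cells were also the shallowest of the 4 sets. The highest count, 609 UMIs, belonged to Olfr592 in a wild-type cell.

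**Figure D2:**
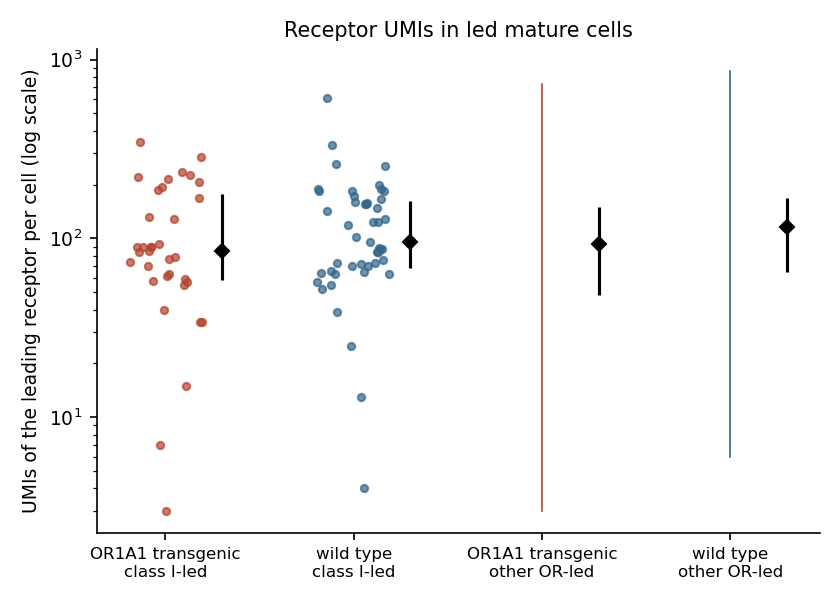
UMIs of the leading receptor in each led mature cell (y axis, log scale), for class I-led cells (35 transgenic and 47 wild type, 1 point a cell) and for cells led by other ORs (402 and 353, thin lines from the lowest to the highest cell). Black diamonds are medians and black bars quartiles, and the medians of 85 and 95 UMIs lie within the quartiles of the other ORs.

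Most class I-led cells held little of any other OR. The leading member gave a median of 98.7% of the OR UMIs of its cell in transgenic cells and 99.2% in wild-type cells. No other OR was seen in 10 of 35 transgenic and 14 of 47 wild-type cells, the next OR had 1 or 2 UMIs in 20 and 33, and it reached 3 UMIs in 5 and 0. Led cells near the minimum of 3 UMIs were rare. Olfr555 led with 3 transgenic and 4 wild-type UMIs, 11 transgenic and 6 wild-type mature cells without a led OR had a member as their top OR at 1 UMI, and none had one at 2.

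The feature that the authors added for the OR1A1 transgene was present in class I-led cells about as often as in cells led by other receptors. It gave a UMI in 14 of 35 class I-led transgenic cells, 40.0% (23.9 to 57.9%), and in 133 of 402 cells led by other ORs, 33.1% (28.5 to 37.9%). It was found in 157 of 179 transgenic mature cells that no OR led, 87.7% (82.0 to 92.1%). The transgene out-counted the leading receptor in 0 class I-led cells and in 5 cells led by other ORs. A single class I-led cell had as many as 20 transgene UMIs, led by Olfr594 with 59. None of the 430 wild-type mature cells held a transgene UMI.

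The genes lie in 4 blocks along the chromosome, parted in the RefSeq gene order by the β-globin (Hbb) genes with 6 class I ORs outside the range, by Trim genes and by Usp17l genes. The first block, Olfr544 to Olfr630, held 66 genes, of which 24 led a mature cell (36.4%), with 40 led cells over both libraries. In the second, Olfr631 to Olfr649, 5 of 15 genes led (33.3%) with 6 cells. In the third, Olfr651 to Olfr661, 5 of 10 led (50%) with 10 cells. In the fourth, Olfr665 to Olfr692, 13 of 23 led (56.5%) with 26 cells. The fourth block thus had more led cells per gene (1.13) than the first (0.606). By library, the first block had 17 transgenic and 23 wild-type led cells, and the fourth 10 and 16.

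Among receptor families with at least 4 members, family 24 had 3 leaders among 4 genes with 9 led cells, family 32 had 6 among 11 with 16, and family 40 had 5 among 7 with 10. Family 34 had 4 among 7 with 6, family 13 had 3 among 6 with 4, and family 14 had 2 among 8 with 3. Family 8 had 1 among 4 with 2 and family 31 had 2 among 10 with 3. Of all members 41.2% led a mature cell. Genes with an annotated 3′ untranslated region led more often than genes without one. The GENCODE M21 annotation gave such a region for 103 members, of which 46 led a mature cell (44.7%), and none for 11, of which 1 did (9.09%). The other ORs showed the same split, 43.7% of 922 and 7.81% of 64. That annotation is of GRCm38, so the gene models the authors counted on may differ.

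All 114 members were accounted for. A UMI in some barcode of either library was found for 111, and none for Olfr574, Olfr589 and Olfr643. In kept cells 89 had a UMI and 25 had none, of which the first 10 in number order were Olfr547, Olfr551, Olfr553, Olfr554, Olfr564, Olfr569, Olfr570, Olfr572, Olfr574 and Olfr575. A neuron of any stage was led by 54 genes, and 35 had UMIs in kept cells without leading a neuron. A gene absent from the led cells may lie below what 437 and 400 led cells can show: 3 cells would be 0.686% of 437 and 0.750% of 400. The other members known by their ligands or places of expression were also rare. Olfr544, a receptor for azelaic acid, led 1 wild-type cell with 128 UMIs, and its neighbour Olfr545 led another with 183. Olfr690, which responds to isovaleric acid, had 9 transgenic and 66 wild-type UMIs over all barcodes and none in kept cells. Olfr691 had 2 UMIs in kept cells and led none. Olfr692, known from vomeronasal neurons that respond to pup odours, led 1 later immature transgenic cell with 19 UMIs.

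Class I-led neurons differed from neurons led by other ORs in the genes that mark the zones of the epithelium. Nqo1, a quinone reductase of dorsal-zone neurons, was detected in 33 of 35 class I-led transgenic cells, 94.3% (80.8 to 99.3%), and in 119 of 402 cells led by other ORs, 29.6% (25.2 to 34.3%). In the wild type it was detected in 46 of 47, 97.9% (88.7 to 99.9%), and in 113 of 353, 32.0% (27.2 to 37.2%). Its summed level was 1225 counts per 1000000 UMIs (CPM) in class I-led and 285 CPM in other OR-led transgenic cells (log2 difference 2.10), and 1516 and 397 CPM in wild-type cells (1.93). The dorsal-zone gene Acsm4, an acyl-CoA synthetase, was at 541 and 178 CPM in the transgenic (1.61) and 457 and 146 CPM in the wild-type library (1.66). Read the other way, members led 21.7% (15.4 to 29.1%) of the led transgenic cells with Nqo1 and 0.702% of those without it, and 28.9% (22.0 to 36.6%) and 0.415% in the wild type.

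The genes of ventral zones went the other way. Nfix, a nuclear factor I transcription factor, was at 39.1 CPM in class I-led and 479 CPM in other OR-led transgenic cells (log2 difference −3.54), and at 46.1 and 465 CPM in the wild type (−3.28). The adhesion molecule Ncam2 (OCAM) was lower by −3.65 in transgenic cells and −3.69 in wild-type cells, Nfib by −2.91 and −2.69, and Nfia by −1.37 and −2.42. All 4 genes of the ventral list were past 2-fold lower in both libraries and both genes of the dorsal list past 2-fold higher. Among all measured genes 0.642% were past 2-fold higher and 1.72% past 2-fold lower in class I-led cells of the transgenic library (6387 genes), and 0.471% and 2.36% in the wild type (6575 genes). Measured genes had 20 CPM or more and 50 UMIs or more in either set of cells.

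Among 7 measured guidance genes the semaphorin receptors Nrp2 (−3.30 in transgenic cells and −3.28 in wild-type cells) and Nrp1 (−1.79 and −2.14) were lower past 2-fold. The guidance receptor Robo2 was higher by 0.91 and 0.82, short of 2-fold. Of 12 genes tied to receptor choice, such as Lhx2, Ldb1, Ebf1 and Lbr, 0 were past 2-fold higher and 1 was lower in each library. That gene was Bcl11b, a zinc-finger factor tied to the choice between the receptor classes, at −2.40 and −2.48. The other OR-led cells were of dorsal and ventral zones and were not split by zone for these genes. The parts of receptor class and zone in the differences were thus not tested. The 10 transduction genes, among them Gnal, Adcy3 and Cnga2, had median log2 differences of −0.06 in transgenic cells and −0.18 in wild-type cells with 0 past 2-fold either way, and so did the 3 measured receptor transport genes (0.11 and −0.12). Over all measured genes 10 were past 2-fold higher in both libraries, which was 24.4% of the 41 transgenic and 32.3% of the 31 wild-type ones. Besides Nqo1 and Acsm4 these were Hs3st5, Rflnb, Gm10134, Nob1, Tppp3, Acss2, Hspa2 and Vldlr. A total of 29 were lower in both (26.4% of 110 and 18.7% of 155), with Avp, Ifi27 and Mdga2 at the head.

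**Figure D3:**
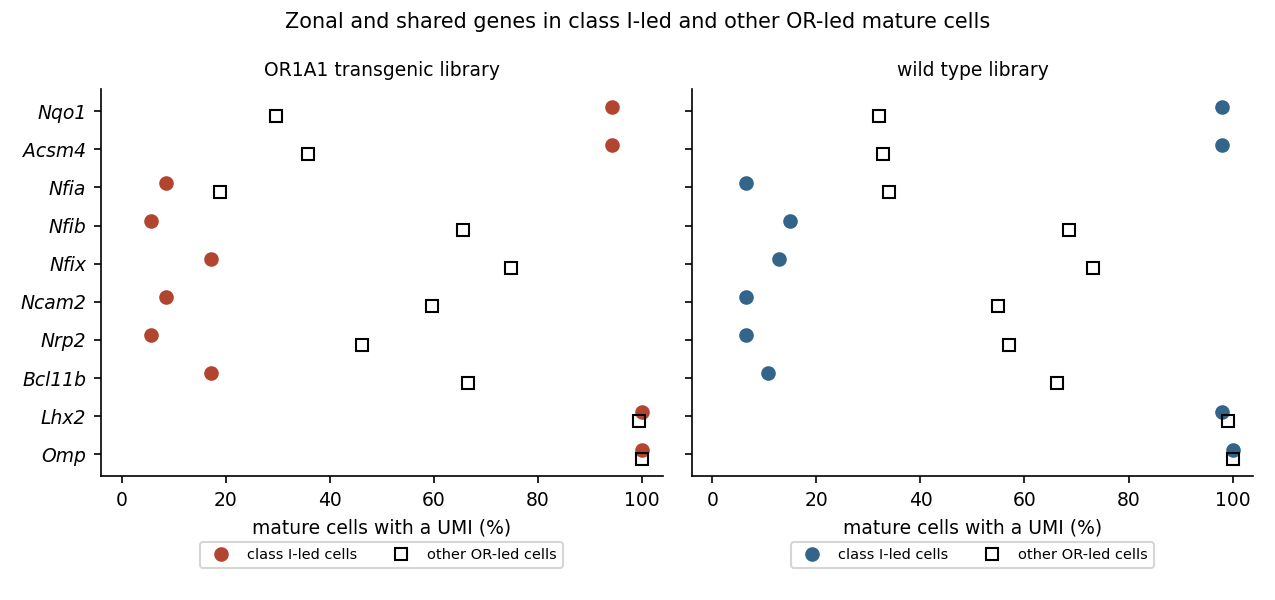
Share of mature cells with at least 1 UMI of each gene (x axis, %), in class I-led cells (filled circles) and other OR-led cells (open squares) of the transgenic (left, 35 and 402 cells) and the wild-type library (right, 47 and 353 cells). Nqo1 and Acsm4 lie far to the right in class I-led cells, the ventral genes, Nrp2 and Bcl11b far to the left, and Lhx2 and Omp are found in nearly all cells of both sets.

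Up to the immature stages class I members led few cells. In transition cells their share of leads was 6.78% in the transgenic library, against 8.01% in mature cells. In the wild type it was 6.06%, against 11.8%, from 2 led transition cells. Olfr613 alone led 4 of the 8 class I-led transgenic transition cells, 3.39% of the 118 led cells, and other members led the remaining 4. Members averaged 0.113 detections at 1 UMI per transgenic GBC and 0.143 per wild-type GBC, 0.0870 and 0.0625 per INP, 0.288 (0.168 to 0.461) and 0.667 (0.245 to 1.45) per early immature cell, 0.141 and 0.370 per later immature cell, 0.160 and 0.108 per transition cell and 0.169 (0.138 to 0.205) and 0.274 (0.227 to 0.329) per mature cell. Fibroblast-like cells, which should lack ORs, held 0.0476 and 0.0909, and all named non-neuronal cells 0.105 (0.0806 to 0.135) and 0.118 (0.0907 to 0.152). GBC and INP values were not above those of non-neuronal cells beyond counting error. Median depths were 26576 and 33996 UMIs in GBCs, 13728.5 and 12335 in mature cells and 12956 and 12185 in non-neuronal cells.

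The early immature stage, where many ORs are seen at low counts, held few members for the number of ORs seen. Transgenic cells averaged 0.288 members against 9.81 other ORs there, and wild-type cells 0.667 against 16.9. Members made up 2.85% (1.67 to 4.53%) of all OR detections in early immature transgenic cells, 5.04% in later immature, 8.27% in transition and 10.4% (8.60 to 12.5%) in mature cells. In the wild type the shares were 3.80% (1.41 to 8.08%), 13.1%, 5.63% and 14.5% (12.1 to 17.1%). The early share lay below the mature one in each library without overlap of the intervals. Of distinct genes, 9 members and 351 other ORs were seen in early immature transgenic cells, and 6 and 132 in the wild type, against 47 members and 388 other ORs in mature transgenic cells and 42 and 339 in the wild type. In free RNA (barcodes under 100 UMIs) members gave 6.55% of 2612 transgenic OR UMIs and 10.4% of 2560 wild-type OR UMIs. With each cell thinned to 7500 UMIs the early immature means were 0.119 transgenic and 0 wild-type members per cell and the mature means 0.129 and 0.201. After thinning the early immature mean was thus not above the mature one in either library. Median depths of transgenic cells were already alike before thinning, at 13562 UMIs in early immature and 13728.5 in mature cells. All 17 early immature transgenic detections were at 1 or 2 UMIs, which thinning readily loses, so the part of depth was not tested. The wild-type 0 comes from 9 cells, where 3 counts would make 33.3%, whereas 17.8% of thinned wild-type mature cells held a member. That 0 does not place the wild-type early immature stage below the mature one.

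Members led 3 of 145 OR-led immature cells in the transgenic library, 2.07% (0.429 to 5.93%), and 3 of 41 in the wild type, 7.32% (1.54 to 19.9%). Among transition cells they led 8 of 118, 6.78% (2.97 to 12.9%), and 2 of 33, 6.06% (0.743 to 20.2%). Olfr613 led 4 of the 8 transgenic ones, 3.39% of the 118. The 3 immature transgenic leaders were Olfr653 with 25 UMIs, Olfr655 with 23 and Olfr692 with 19, and the wild-type ones Olfr649 with 43, Olfr618 with 22 and Olfr571 with 3. Over all neurons from immature to mature, members led 46 of 700 transgenic cells (6.57%) and 52 of 474 wild-type cells (11.0%).

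**Figure D4:**
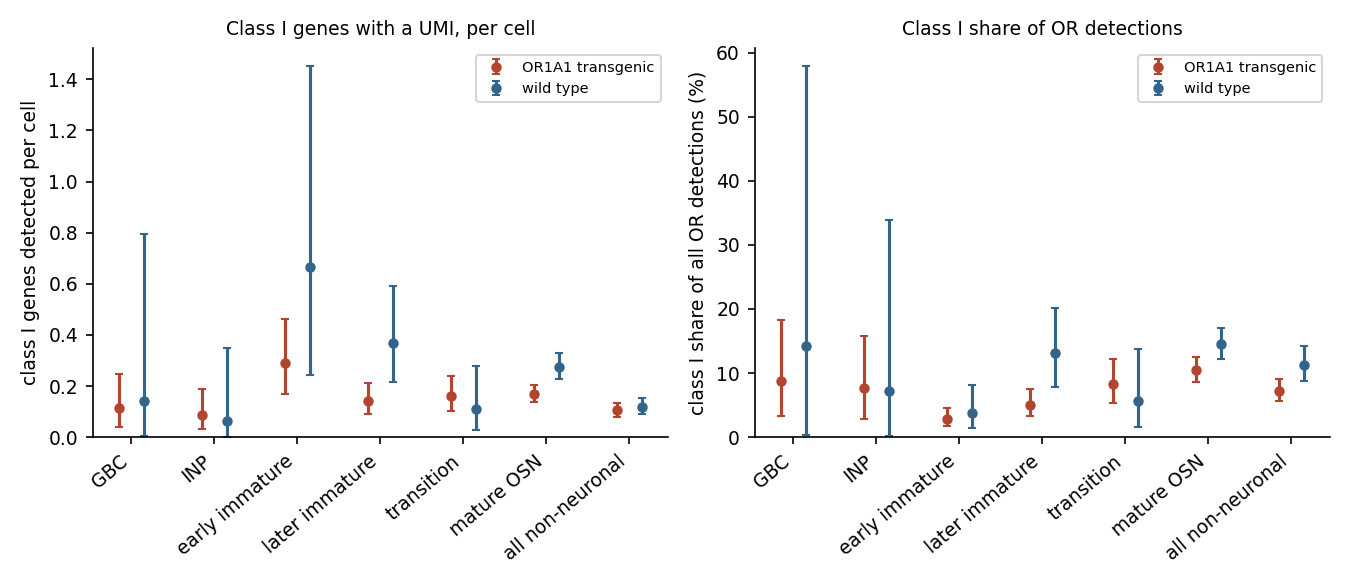
Class I genes detected at 1 UMI per cell (left) and class I share of all OR detections (right, %), by lineage stage and in all named non-neuronal cells, for the OR1A1 transgenic and the wild-type library. Points are pooled values of a library and bars exact 95% intervals for counting error only; the early immature share of 2.85% and 3.80% is the lowest of each library's stages.

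Of all members, Olfr671 was seen most often in mature cells that it did not lead. It gave 27 of the 69 such transgenic detections of members and 44 of the 71 wild-type ones. The next were Olfr655 and Olfr635 with 7 each in the transgenic library, and Olfr552 with 5 in the wild type. Olfr671 (ENSMUSG00000094531) was detected in 28 of 616 mature transgenic cells, 4.55% (3.04 to 6.50%), and 45 of 430 wild-type cells, 10.5% (7.74 to 13.8%), yet led 1 cell in each, with 131 and 142 UMIs. In the other cells it had mostly 1 UMI, with 27 UMIs in 27 transgenic and 49 in 44 wild-type cells. In non-neuronal cells it was found in 7 of 590, 1.19% (0.478 to 2.43%), and 7 of 524, 1.34% (0.539 to 2.73%), and free RNA held 4 UMIs in each library. Olfr591, which gave more free UMIs (6 and 11), was seen in just the 3 and 4 mature cells that it led. Detection of Olfr671 was above the non-neuronal level in both libraries, at similar depth. With mature cells thinned to 7500 UMIs the shares were 2.56% in transgenic and 6.03% in wild-type cells.

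Olfr671 was also counted by the receptor that led the cell. It was found in 1 of 34 transgenic and 6 of 46 wild-type cells led by another member (2.94% and 13%), in 5.04% and 7.96% of other OR-led cells with Nqo1, in 4.95% and 10.4% of those without it, and in 3.35% and 13.3% of cells with no lead. Within each library the intervals of these shares overlapped. The coding sequence of Olfr671 was 96.6% identical to that of Olfr675, so reads of the pair may be split or lost in counting. Over its annotated sequence, which has 2146 bases of 3′ untranslated region, 17.6% of 31-base stretches were shared with other ORs.

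Olfr655 (ENSMUSG00000051182) was the member found in most immature cells. In the transgenic library it was detected in 7 of 59 early immature cells, 11.9% (4.91 to 22.9%), 8 of 163 later immature cells, 4.91% (2.14 to 9.44%), 8 of 616 mature cells, 1.30% (0.562 to 2.54%), and 9 of 590 non-neuronal cells, 1.53% (0.700 to 2.88%). In the wild type it was found in 1 of 9 early immature, 0 of 46 later immature, 2 of 430 mature and 6 of 524 non-neuronal cells. Further transgenic detections were in 3 of 53 GBCs, 5.66% (1.18 to 15.7%), 1 of 69 INPs and 3 of 144 transition cells. The transgenic share of Olfr655 was thus highest at the earliest immature stage. Its interval there overlapped those of GBCs, INPs, later immature and transition cells and lay above those of mature and non-neuronal cells. The 9 wild-type early immature cells are too few to show the same. It led 1 mature transgenic cell with 34 UMIs, 1 later immature transgenic cell with 23 and 1 wild-type transition cell with 105. Free RNA held 18 transgenic and 3 wild-type Olfr655 UMIs. Together Olfr655 and Olfr671 gave 34 of the 69 transgenic and 46 of the 71 wild-type detections of members in mature cells that another OR or none led. In the same count they gave 18 of 37 transgenic and 5 of 20 wild-type detections in immature cells, and 15 of 55 and 13 of 54 in non-neuronal cells, where most detections were of other members. Of the other members named for immature or non-neuronal detections, Olfr552 (7 non-neuronal cells) and Olfr624 (3 immature cells) led no cell, Olfr653 led 1 mature wild-type cell with 70 UMIs and Olfr560 1 mature transgenic cell with 206.

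Pairs of receptors at 3 or more UMIs each were rare. Between members, mature cells held 1 such pair in the transgenic library (Olfr584 at 89 UMIs with Olfr582 at 8) and 0 in the wild type. Members paired with another OR in 6 mature transgenic cells and 1 wild-type cell. In all, 13 pairs that involved a member were seen in immature, transition and mature cells, and none of them in more than 1 cell. Mature cells with any 2 ORs at 3 UMIs numbered 37 transgenic and 13 wild type. At 1 UMI each, members paired with each other 17 times in transgenic and 14 times in wild-type mature cells.

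Several pairs joined genes of near-identical sequence or shared exons, where reads of 1 gene can be assigned to the other. Olfr658 at 34 UMIs stood with Olfr503 at 12, and their coding sequences were 97.1% identical. Olfr559 at 84 UMIs stood with Olfr33 at 5 (94.2% identical), and Olfr584 with Olfr582 as above (96.2% identical). Olfr560 at 206 UMIs stood with Olfr78 at 5, a gene of 59.9% coding identity that shares 926 exon bases with it on the same strand in GENCODE M21. Over the annotated sequence, 15.5% of the 31-base stretches of Olfr658 were shared with other ORs. The shares were 28.6% for Olfr559, 20.1% for Olfr584 and 49.9% for Olfr560. To show how close these genes run, the last 120 coding bases of 3 such pairs are given below from GENCODE M21 transcripts (GRCm38), in lower case with the bases that differ within the pair in capitals. Olfr584, at chr7:103086357-103086476 (plus strand), and Olfr582, at chr7:103042318-103042437 (plus strand), differ at 8 of them. Olfr658, at chr7:104644402-104644521 (minus strand), and Olfr503, at chr7:108545376-108545495 (plus strand), differ at 3, and Olfr559, at chr7:102723535-102723654 (minus strand), and Olfr33, at chr7:102713458-102713577 (minus strand), differ at 8.
Olfr584: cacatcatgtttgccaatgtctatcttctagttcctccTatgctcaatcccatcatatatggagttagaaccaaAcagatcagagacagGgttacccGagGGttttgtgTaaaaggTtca
Olfr582: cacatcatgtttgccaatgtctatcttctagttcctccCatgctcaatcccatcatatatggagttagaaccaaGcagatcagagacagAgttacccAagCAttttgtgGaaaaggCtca
Olfr658: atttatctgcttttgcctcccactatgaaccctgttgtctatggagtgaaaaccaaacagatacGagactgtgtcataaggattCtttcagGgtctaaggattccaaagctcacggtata
Olfr503: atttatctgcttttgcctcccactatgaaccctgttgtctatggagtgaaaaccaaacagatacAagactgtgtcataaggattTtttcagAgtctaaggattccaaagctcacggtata
Olfr559: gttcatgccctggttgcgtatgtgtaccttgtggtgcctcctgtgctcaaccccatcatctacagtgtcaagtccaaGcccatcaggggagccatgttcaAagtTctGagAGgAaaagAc
Olfr33: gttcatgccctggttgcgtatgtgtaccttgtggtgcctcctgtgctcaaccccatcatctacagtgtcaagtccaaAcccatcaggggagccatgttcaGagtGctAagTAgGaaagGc

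The remaining pairs were not of this kind. Mature transgenic cells held Olfr1508 at 179 UMIs with Olfr659 at 36, Olfr868 at 123 with Olfr655 at 14, and Olfr558 at 169 with its neighbour Olfr33 at 3. The mature wild-type cell held Olfr1042 at 95 UMIs with Olfr655 at 6. Olfr655 was the lower partner in 3 further transgenic cells, at 27 UMIs beside Olfr613 at 102 in a transition cell, and at 26 beside Olfr263 at 73 and 3 beside Olfr360 at 366 in later immature cells. It was thus the lower partner in 5 of the 13 pairs. The remaining 2 were Olfr617 at 85 UMIs with its neighbour Olfr618 at 5 in a transgenic transition cell (80.6% identical) and Olfr667 at 88 with Olfr1507 at 6 in a wild-type one. How many of these cells were doublets was not tested.

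Olfr613 (ENSMUSG00000078624) marked a small set of cells with a profile of their own. It led 4 transition cells of the transgenic library, with 102, 86, 75 and 63 UMIs, 0 wild-type kept cells and 0 mature cells of either library. Among the 103 ORs that led a transgenic transition cell it was the only one to lead 4 or more, and no OR led more than 2 wild-type transition cells. In these 4 cells Fxyd2, a regulatory subunit of the sodium pump, had 271, 226, 131 and 175 UMIs in the same order, whereas the highest of the 140 other transition cells had 14. Summed, Fxyd2 was at 8279 CPM in the Olfr613-led cells, 11.5 CPM in the other transition cells and 2.48 CPM in mature transgenic cells. The genes of this comparison were chosen after their values had been seen, and the difference was not tested.

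Other genes of the Olfr613-led cells set them apart from the cluster around them. The calcium-binding protein gene S100a6 was at 4867 CPM, against 19.1 CPM in the other transition cells, and the pyrophosphatase gene Ppa1 at 20972 CPM, against 623. Fxyd2 itself headed the cluster's leading genes by fold, yet its median in the other transgenic transition cells was 0 UMIs. Calb2, also a leading gene of the cluster, had 0 to 4 UMIs per Olfr613-led cell (41.2 CPM, against 1692 in the other transition cells and 144 in mature cells). The growth cone gene Gap43 had 0 or 1 (30.9 CPM, against 847 in the other transition cells and 47.2 in mature cells). S100a5 was at 30561 CPM, against 5243 and 22345 CPM. By Calb2, Gap43 and S100a5 the cells were nearer to mature cells than to the other transition cells, and they count as transition by their cluster. Omp was at 3774 CPM, against 3738 CPM in the other transition cells and 5014 CPM in mature cells. The channel gene Cnga2 was farther from mature cells, at 124 CPM, against 405 CPM in the other transition cells and 602 CPM in mature cells. So were Stoml3 and Gnal, the latter at 825 CPM, against 2385 and 3242 CPM. The zonal genes were split: Nqo1 had 0 UMIs in all 4 cells, while Acsm4 had 11 to 25 per cell (619 CPM, against 145). The ventral gene Nfix was at 41.2 CPM, against 376 CPM in the other transition cells and 39.1 CPM in class I-led mature cells. Nrp2 was at 330 CPM, against 174 and 6.18 CPM in the same sets. The other class I-led transition cells, 4 transgenic and 2 wild type, all held Nqo1. The transgene had 1 UMI in 1 of the 4 cells and 0 in the others.

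The same pairing of Olfr613 with Fxyd2 was seen in barcodes that had been left out, in the wild-type library too. Barcodes with at least 2 Olfr613 UMIs numbered 8 transgenic and 2 wild type, and all 10 held Fxyd2. The 2 wild-type barcodes had 44 and 4 Olfr613 UMIs beside 31 and 9 Fxyd2 UMIs. Their mitochondrial shares of 32.9% and 57.9% were past the maximum, and the barcode with 4, at 3889 UMIs in all, also fell short of the wild-type minimum of 5317.7 UMIs. A transgenic barcode just past the mitochondrial maximum of 10%, at 11.2%, had 70 Olfr613, 73 Fxyd2 and 65 S100a6 UMIs. Mitochondrial shares of the 4 kept cells were 6.60% to 9.95%, high for the library, whose kept cells had a median of 5.42%, and its part in the profile was not tested. Among the other neurons 0 of 978 transgenic cells and 1 of 522 wild-type cells held 20 or more Fxyd2 UMIs. That wild-type cell, with 195, was led by Olfr1346.

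**Figure D5:**
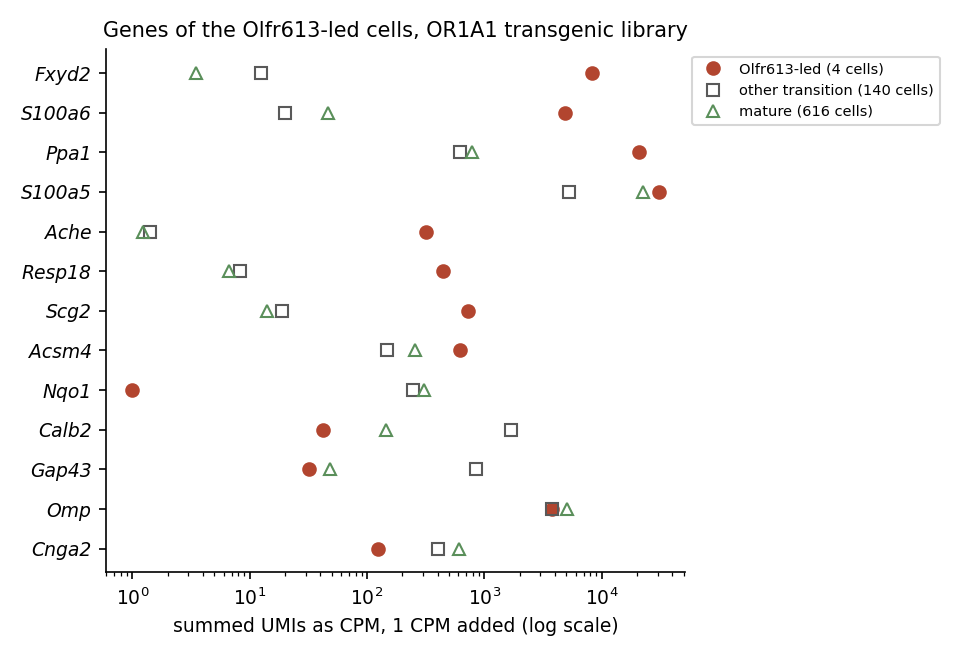
Summed level of 13 genes (x axis, CPM with 1 added, log scale) in the 4 Olfr613-led cells, the 140 other transition cells and the 616 mature cells of the transgenic library. Fxyd2, S100a6 and Ppa1 lie far to the right in the Olfr613-led cells, Nqo1, Calb2 and Gap43 to the left, and Omp is close in all 3 sets.

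Olfr558 (ENSMUSG00000070423) was expressed outside the neurons. This gene encodes a receptor for short-chain fatty acids and is known from vascular smooth muscle. It led 1 mature cell in each library, with 169 transgenic and 87 wild-type UMIs, and was found in no other mature cell. Among endothelial-like cells with at least 3 of the 6 pericyte or smooth muscle markers (Rgs5, Acta2, Tagln, Myl9, Notch3 and Pdgfrb), it was detected in 8 of 13 transgenic cells, 61.5% (31.6 to 86.1%), and 8 of 15 wild-type cells, 53.3% (26.6 to 78.7%). It was found in 0 of 58 transgenic endothelial-like cells with fewer such markers, and in 0 of 73 wild-type ones. These allow shares of up to 5.17% and 4.11% for cells with a UMI, not for cells that express the gene, which had at most 5 UMIs where it was found in vascular cells. Fibroblast-like cells had 0 of 84 and 0 of 44. Detection thus followed the mural markers in both libraries. The split by these markers was made with values of the gene already known.

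The counts of Olfr558 in these vascular cells were low, 18 UMIs over the transgenic and 20 over the wild-type cells, with at most 4 and 5 in a cell. It led 2 transgenic and 4 wild-type of them at 3 to 5 UMIs. All 6 mural markers were present, summing to 7898 CPM in transgenic cells with Olfr558 and 827 CPM in endothelial-like cells without it, and to 9684 and 910 CPM in the wild type. The 11 mature OSN markers summed to 354 and 404 CPM in transgenic cells and 341 and 449 CPM in wild-type cells, with 1 and 3 of them at 0 in the cells with Olfr558. Omp in the cells with Olfr558 was at 26.9 and 63.9 CPM, against 5014 and 5097 CPM in mature cells. The 6 endothelial markers summed to 4992 CPM in transgenic cells with Olfr558 and 6424 CPM in those without, and to 1605 and 6900 CPM in the wild type. In GENCODE M21 the antisense pseudogene Gm45688 overlaps 101 exon bases of Olfr558, and reads of the pair can be told apart only by strand.

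Some other non-neuronal droplets were led by members at a neuron's level. In the transgenic library a sustentacular-like droplet was led by Olfr675 with 166 UMIs and an ionocyte-type microvillar-like one by Olfr652 with 76. Erythroid-like droplets of the wild type were led by Olfr681 with 150 UMIs and Olfr657 with 130. These droplets count in the non-neuronal background above, and whether they held more than 1 cell was not tested.

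Promoter windows of the RefSeq table (GRCm38.p6, 250 bases before to 50 after the gene start) are shown for Olfr558 and Olfr613, whose cells differ from other class I-led neurons, and for Olfr605, which holds a searched motif. The windows are chr7:102702073-102702372 (plus strand), chr7:103550118-103550417 (plus strand) and chr7:103443101-103443400 (minus strand). The motifs searched were TAATTA, a homeodomain core, and the palindromic O/E-type (Olf/Ebf) motif, and both read the same on either strand. TAATTA is in capitals, 122 bases before the start of Olfr605.
Olfr558: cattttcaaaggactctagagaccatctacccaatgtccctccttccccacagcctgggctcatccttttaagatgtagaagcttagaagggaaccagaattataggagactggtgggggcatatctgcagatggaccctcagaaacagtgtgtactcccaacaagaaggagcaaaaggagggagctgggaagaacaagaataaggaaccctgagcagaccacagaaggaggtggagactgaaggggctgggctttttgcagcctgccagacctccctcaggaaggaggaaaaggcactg
Olfr613: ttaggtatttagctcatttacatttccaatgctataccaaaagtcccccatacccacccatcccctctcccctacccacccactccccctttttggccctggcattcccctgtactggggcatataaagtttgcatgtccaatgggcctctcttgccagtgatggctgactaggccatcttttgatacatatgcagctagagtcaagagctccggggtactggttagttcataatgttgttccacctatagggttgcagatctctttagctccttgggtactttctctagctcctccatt
Olfr605: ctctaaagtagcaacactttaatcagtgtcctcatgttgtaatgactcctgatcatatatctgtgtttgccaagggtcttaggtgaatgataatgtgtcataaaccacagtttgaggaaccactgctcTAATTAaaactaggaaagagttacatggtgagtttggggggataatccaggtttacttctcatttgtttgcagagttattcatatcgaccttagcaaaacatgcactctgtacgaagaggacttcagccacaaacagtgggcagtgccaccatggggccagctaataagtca

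A total of 98 members had a window, but for 76 of them the annotated gene began at the start codon, so that 22 windows lay upstream of the coding sequence. TAATTA was found in 2 of these 22 (Olfr570 and Olfr605), 9.09%, in 19.7% of 233 upstream windows of other ORs and in 4.81% of 25200 upstream windows of all genes. The O/E-type motif was found in 0 of the 22, in 0.858% of the windows of other ORs and in 0.925% of those of all genes. These matches describe letters in a window and no binding was measured.

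Summed over mature cells, class I transcripts were lower in the transgenic library. Members gave 4079 UMIs, 481 CPM, in the transgenic and 6045 UMIs, 1118 CPM, in the wild-type cells, a log2 ratio of −1.22. Other ORs were at 5450 and 9061 CPM, a log2 ratio of −0.73. Per gene, 24 members were measured in at least 1 library (20 CPM and 50 UMIs), of which 5 were past 2-fold higher and 15 past 2-fold lower in the transgenic library, with a median of −2.04. Among all 7024 measured features 1.65% were past 2-fold higher and 3.40% past 2-fold lower, with a median of −0.04. The 198 measured other ORs split in the same manner, 58 higher and 113 lower, with a median of −2.52. A gene led by 1 cell in 1 library and none in the other passes 2-fold by that cell alone, so these counts follow the leads given above.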

How the data were processed

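The authors deposited unfiltered UMI counts for every feature and barcode, and the submitters' processing notes list Cell Ranger 6.1.1 and GRCm39 (mm39). The sequence behind the transgene feature and the treatment of reads shared by near-identical receptors are not given in the sources used here. Barcodes were kept with at least 5827.5 (transgenic) or 5317.7 (wild-type) UMIs, 500 genes and at most 10% mitochondrial UMIs, which left 1749 and 1119. Scrublet removed 4 and 2 (0.229% and 0.179%), so few that doublets may remain. Both libraries were clustered together in scanpy 1.11.5 (igraph 0.11.9) on scaled expression of 2000 variable genes without receptors, with 30 components, 15 neighbours and Leiden resolution 1. Clusters were named from fixed markers with a mean log2 excess of 1 and at least 3 markers at 2-fold. The early immature group came from resolution 2. Levels are sums of UMIs per set of cells as CPM, and log2 differences have 1 UMI added to each sum. Coding sequences were aligned with Biopython 1.88. Leads, naming and thinning were tested on simulated data.

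The named members are the 10 leading most mature cells, those with most and fewest UMIs per led cell among genes leading 3 or more cells (5 genes), the 5 seen in most immature and the 5 in most non-neuronal cells, those differing most between libraries among genes leading 5 or more cells (2 genes), and Olfr544, Olfr545, Olfr558, Olfr690, Olfr691 and Olfr692. Members and gene lists were chosen with earlier results of these data known. No test was made, and alternatives were another lead minimum, cell filter, doublet rule, resolution, scaling and depth.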

Additional observations from a re-analysis of the deposited data

How the results depend on the processing

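Of 324 values of 24 results under 23 other settings, 282 stayed within the spread set for them and 42 moved; the causes were not tested beyond what a setting itself leaves out. The class I share of led cells ran from 6.57 to 11.0% in the transgenic and from 8.30 to 12.9% in the wild-type library. It was lower in the transgenic library in 18 of 19 settings, the main one included. These settings are of mature cells, except for all neurons, which gave the 6.57%, and all kept cells. At a mitochondrial maximum of 5% the transgenic share was 11.0%, the genes leading numbered 18 transgenic and 17 wild type, the mature mean was 0.224 members per transgenic cell and there were 2 transgenic pairs. With no doublets removed, mature cells lost a cluster to the unnamed: the wild-type share was 8.30%, leaders numbered 14 and 16, the wild-type median was 156 UMIs and 2 transgenic pairs were seen. Transgenic pairs of members in mature cells, 1 in the report, numbered 17, 4 and 0 at 1, 2 and 10 UMIs each (wild type 14 and 3 at 1 and 2 UMIs), 4 at a mitochondrial maximum of 20%, 3 with the top 5% of doublet scores removed, 2 at resolution 2 and 2 without scaling. Thinning to 7500 UMIs gave a transgenic median of 54 UMIs per led cell, and means of 0.0741 and 0.212 members per immature, 0.129 and 0.201 per mature transgenic and wild-type cell and 0 per wild-type GBC. The wild-type INP mean was 0 at minima of 2000 and 500 UMIs and at 20% mitochondrial UMIs. Without Olfr655 and Olfr671 the means were 0.0377 per transgenic and 0 per wild-type GBC, 0.0946 per transgenic immature cell, and 0.110 and 0.165 per mature transgenic and wild-type cell. Clustering without scaling, all neurons, all kept cells and the setting without these genes were chosen after seeing the data. In 4 settings no cluster was named GBC and its mean has no value. Leads of single cells and stages of 7 to 16 wild-type cells are limited by cell number. No paired analysis was possible because each group has 1 library and no result comes from a test.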
